A study of Mus musculus with 35 samples.

Results

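The 10 immediate early genes described here were followed through every library of an RNA-seq study of the medulla and cervical spinal cord in a mouse model of spinocerebellar ataxia type 7 (SCA7). The genes were *Fos*, *Fosb*, *Jun*, *Junb*, *Egr1*, *Arc*, *Nr4a1*, *Npas4*, *Dusp1* and *Ier2*. They were chosen by symbol, and all 10 were present among the 35976 gene symbols counted in each of the 35 libraries. The study compared SCA7 266Q/5Q knock-in mice, in which the mouse's own *Atxn7* gene encodes an expanded glutamine tract in ataxin-7, with wild-type (WT) C57Bl/6J littermates. The question asked of these genes was whether their transcript levels differed with genotype, tissue and age, and whether genes and tissues of the same mouse moved together.

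The libraries came from 18 mice. The oldest age, 9 weeks, had 5 mice of each genotype and 5 weeks had 2 of each, every mouse giving a medulla and a cervical spinal cord library. At P8 there were 2 WT and 2 SCA7 libraries labelled medulla, and 1 WT and 2 SCA7 libraries labelled cervical spinal cord. The knock-in allele is carried in every cell, and the tissue was whole, so that fewer cells of a type and less RNA per cell cannot be told apart. The sex of each mouse and the hour of dissection were not given in the sources used here.

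Immediate early genes are switched on within minutes by synaptic activity, growth factors or stress, from factors that already sit on their promoters, and need no new protein synthesis. Calcium and cyclic AMP signals act through CREB at the cyclic AMP response element, and the mitogen-activated protein kinases act through serum response factor. The transcripts decay quickly, so that in nervous tissue their level follows recent activity, handling and the state of the animal at death.

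Depth set what each library could show. Of the 35 libraries, 15 held 28969003 to 99353286 counts (deep) and 20 held 95917 to 396417 counts (shallow). Levels are given as normalized CPM (counts scaled to a library of 1000000), and 3 counts, the limit that a count of 0 allows, came to 0.0262 to 0.122 CPM in deep and 8.96 to 29.8 CPM in shallow libraries. Intervals and limits cover counting error only. The mitochondrial *COX1* took 1.04 to 4.41% of counts in deep and 4.62 to 25.9% in shallow libraries, the highest share being that of SCA7 medulla 2 at 9 weeks. At 5 weeks both WT medulla libraries were deep and both SCA7 medulla libraries were shallow, so that genotype and depth cannot be told apart there.

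The P8 libraries went against their tissue labels. A set of 6 *Hox* genes that mark position along the spinal cord (*Hoxc6*, *Hoxa6*, *Hoxa7*, *Hoxb7*, *Hoxb8* and *Hoxc8*) summed to 378 to 571 CPM in the 4 P8 libraries labelled medulla, against 0 to 33.9 CPM in the medulla at 5 weeks and 0 to 117 CPM at 9 weeks. In the 3 P8 libraries labelled cervical spinal cord the sum was 23.9 to 88.5 CPM, against 142 to 358 CPM in the cord at 5 weeks and 142 to 667 CPM at 9 weeks. The labels were kept as names, and each comparison with P8 was also made against the older libraries of the other tissue.

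All 10 genes were detected in all 15 deep libraries, at 27 or more counts each. In the shallow libraries most counts lay at or under the limit of 3: 20 of 20 libraries for *Fosb* and *Ier2*, 18 or 19 of 20 for *Fos*, *Junb*, *Arc*, *Nr4a1*, *Npas4* and *Dusp1*, 11 for *Egr1* and 7 for *Jun*. The highest count of any member in a shallow library was 22, for *Jun*. The plot of levels by tissue, age and genotype is therefore restricted to the deep libraries.

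**Figure D1:**
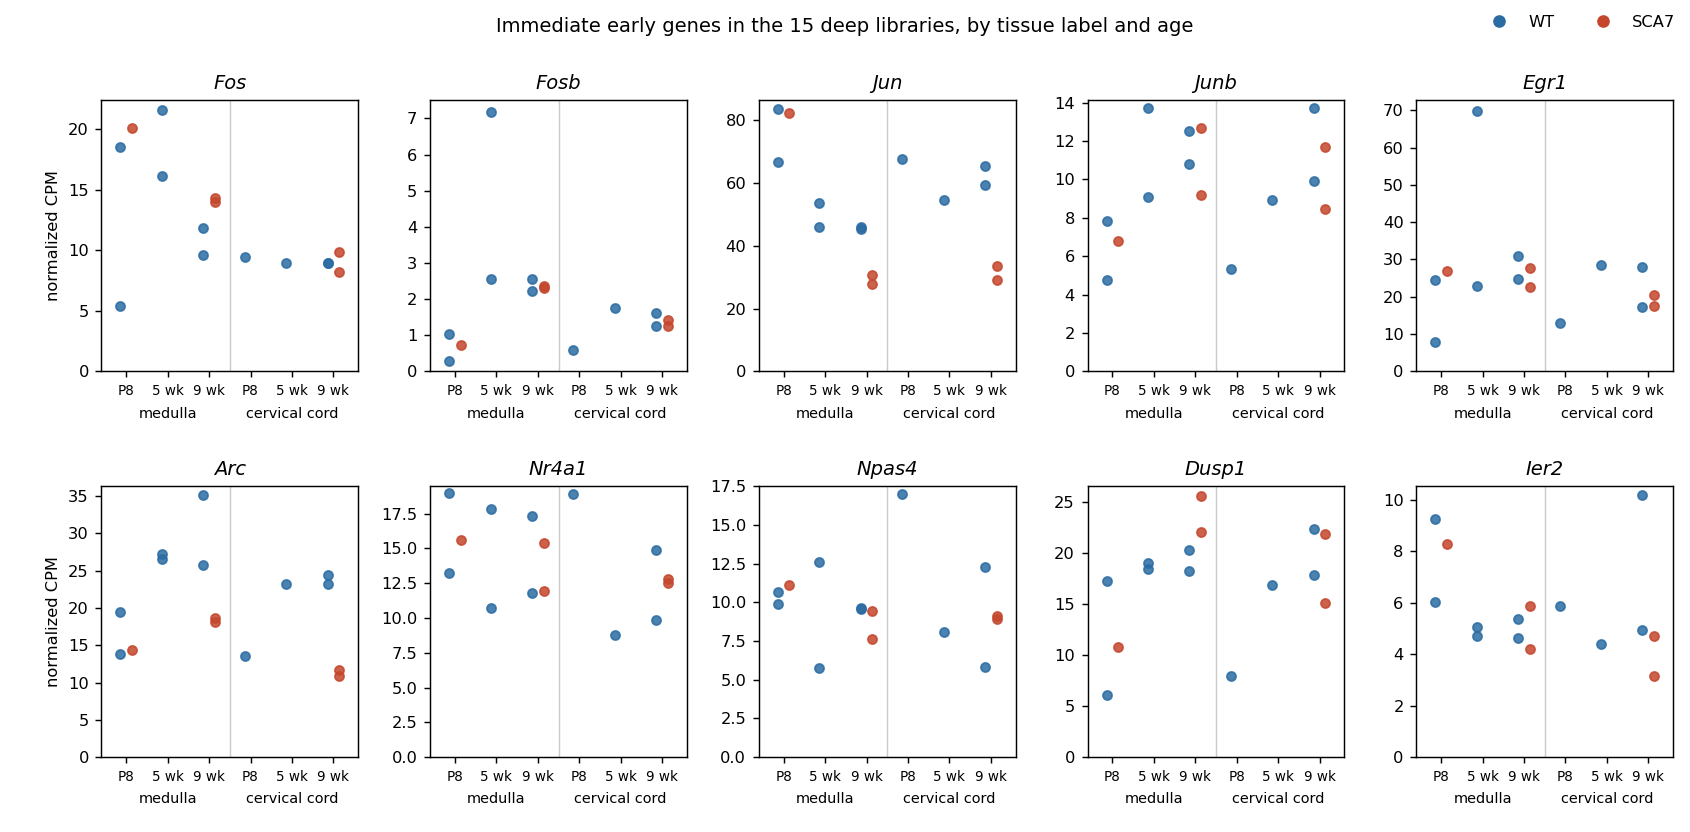
Normalized CPM (linear axis from 0) of each of the 10 genes in the 15 deep libraries, placed by tissue label and age, with WT in blue and SCA7 in red and each point 1 library. *Fosb* and *Egr1* are highest in WT medulla 1 at 5 weeks (7.17 and 69.7 CPM), and at 9 weeks *Jun* and *Arc* are lower in both SCA7 libraries than in both WT libraries of each tissue.

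*Fos*, *Fosb*, *Jun* and *Junb* encode subunits of the AP-1 transcription factor, in which a Fos protein pairs with a Jun protein. *Jun* (chr4:95049036-95052222, minus strand, 1 exon) had the highest level of the 10 per length, with a deep-library median of 16.8 CPM per kb of exon. Its level, not divided by length, ran from 27.8 CPM in SCA7 medulla 5 at 9 weeks to 83.7 CPM in WT library 2 labelled medulla at P8, with a median of 53.6. The antisense gene *Junos* overlaps it, and whether the counting used strand was not given in the sources used here. Counts assigned to *Junos* were 4.33 to 19.5% of those of *Jun* in the deep libraries.

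*Fosb* (chr7:19302696-19310118, minus strand, 4 exons) had the lowest level per length, 0.431 CPM per kb, and the widest range. Its level ran from 0.279 to 7.17 CPM (median 1.63), a 25.7-fold range in the deep libraries. *Fos* (chr12:85473890-85477274, plus strand, 4 exons) ran from 5.38 to 21.6 CPM (median 9.86, 4.02-fold). *Fos* and *Fosb* shared both ends of their range, the lowest in WT library 1 labelled medulla at P8 and the highest in WT medulla 1 at 5 weeks. *Junb* (chr8:84976909-84978748, minus strand, 1 exon, overlapping *Prdx2*) ran from 4.77 to 13.7 CPM (median 9.21, 2.87-fold).

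*Egr1* (chromosome 18, 2 exons), a zinc-finger transcription factor, ran from 8 to 69.7 CPM (median 24.6, 8.72-fold), with its lowest and highest values in the same libraries as those of *Fos* and *Fosb*. *Nr4a1* (chr15:101253902-101274795, plus strand, 8 exons), an orphan nuclear receptor, had the narrowest range of the 10, 8.75 to 19 CPM (median 13.2, 2.17-fold). *Npas4* (chr19:4984353-5003439, minus strand, 8 exons), a neuronal transcription factor induced by calcium entry, ran from 5.75 to 17 CPM (median 9.55, 2.95-fold). The highest value of each of these 3 genes was in a WT library of 5 weeks or P8, ages at which most deep libraries were WT.

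*Arc* (chr15:74669081-74672570, minus strand, 3 exons), a cytoskeleton-associated protein that moves to active synapses, ran from 10.9 to 35.2 CPM (median 19.4, 3.24-fold). Its 2 lowest deep values were those of SCA7 cord 4 and 5 at 9 weeks. *Dusp1* (chr17:26505591-26508472, minus strand, 4 exons), a phosphatase that switches off mitogen-activated protein kinases, was second per length at 9.15 CPM per kb and ran from 6.06 to 25.6 CPM (median 18.2, 4.23-fold). It overlaps *Ergic1* among other genes. *Ier2* (chr8:84661331-84662852, minus strand, 1 exon), a nuclear protein induced early by growth factors, ran from 3.15 to 10.2 CPM (median 5.07, 3.25-fold). Per length the order after *Jun* and *Dusp1* was *Arc* (6.35), *Egr1* (5.49), *Nr4a1* (5.17), *Junb* (5.09), *Fos* (4.68), *Ier2* (3.33), *Npas4* (2.64) and *Fosb* CPM per kb. Neighbours from *Arc* to *Fos* in that order were closer to each other than the range of each across libraries.

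The promoters of the 7 genes that have one in the RefSeq table are printed to show a short element, the core of the cyclic AMP response element, that 6 of them share. Each line gives the 250 bases before the start site the RefSeq table of GRCm38.p6 uses, 5′ to 3′ on the strand of the gene. The windows are chr12:85473640-85473889 (*Fos*, plus), chr7:19310046-19310295 (*Fosb*, minus), chr8:84978749-84978998 (*Junb*, minus), chr15:101266596-101266845 (*Nr4a1*, plus), chr19:4989972-4990221 (*Npas4*, minus), chr17:26508473-26508722 (*Dusp1*, minus) and chr4:95052223-95052472 (*Jun*, minus). Capitals mark TGACG or its complement on the other strand.
Fos: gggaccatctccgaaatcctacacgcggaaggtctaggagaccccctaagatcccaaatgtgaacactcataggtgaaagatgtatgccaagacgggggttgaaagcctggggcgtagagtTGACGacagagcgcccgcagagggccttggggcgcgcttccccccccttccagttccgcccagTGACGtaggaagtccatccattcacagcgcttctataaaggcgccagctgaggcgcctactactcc
Fosb: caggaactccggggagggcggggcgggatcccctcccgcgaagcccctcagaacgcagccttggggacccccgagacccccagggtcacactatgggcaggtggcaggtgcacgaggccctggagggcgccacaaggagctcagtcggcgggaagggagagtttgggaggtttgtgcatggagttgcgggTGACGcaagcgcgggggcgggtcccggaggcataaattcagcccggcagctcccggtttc
Junb: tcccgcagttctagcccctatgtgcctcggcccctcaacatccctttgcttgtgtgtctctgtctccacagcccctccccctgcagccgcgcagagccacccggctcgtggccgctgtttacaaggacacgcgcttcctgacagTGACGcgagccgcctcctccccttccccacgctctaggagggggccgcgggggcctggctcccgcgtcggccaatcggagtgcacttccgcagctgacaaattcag
Nr4a1: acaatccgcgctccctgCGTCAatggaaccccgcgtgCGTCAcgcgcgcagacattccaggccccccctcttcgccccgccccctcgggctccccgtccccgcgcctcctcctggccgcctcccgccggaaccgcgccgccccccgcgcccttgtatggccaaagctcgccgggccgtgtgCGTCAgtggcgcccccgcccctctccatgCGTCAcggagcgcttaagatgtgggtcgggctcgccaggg
Npas4: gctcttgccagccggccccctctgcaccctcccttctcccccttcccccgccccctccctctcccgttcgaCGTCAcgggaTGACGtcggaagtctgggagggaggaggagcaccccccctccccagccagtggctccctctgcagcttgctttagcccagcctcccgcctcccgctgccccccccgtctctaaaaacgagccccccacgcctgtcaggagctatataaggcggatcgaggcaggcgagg
Dusp1: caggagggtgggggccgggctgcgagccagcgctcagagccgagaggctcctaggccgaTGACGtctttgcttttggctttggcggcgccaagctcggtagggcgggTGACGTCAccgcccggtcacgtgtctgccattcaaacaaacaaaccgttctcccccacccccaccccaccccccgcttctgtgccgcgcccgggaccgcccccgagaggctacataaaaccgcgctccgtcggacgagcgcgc
Jun: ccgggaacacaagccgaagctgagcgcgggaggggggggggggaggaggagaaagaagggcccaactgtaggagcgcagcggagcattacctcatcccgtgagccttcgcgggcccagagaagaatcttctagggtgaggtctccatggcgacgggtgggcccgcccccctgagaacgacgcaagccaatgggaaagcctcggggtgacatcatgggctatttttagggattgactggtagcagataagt
Of the 10 genes, 7 had a promoter in the table. TGACG, searched on both strands, was present in 6 of the 7 (*Fos*, *Fosb*, *Junb*, *Nr4a1*, *Npas4* and *Dusp1*), against 17.8% of 32851 promoters of the same length. The start sites used for *Nr4a1* and *Npas4* lie inside the span of the gene given above. *Nr4a1* held 4 matches, at -233, -213, -69 and -40 from the start site, and *Npas4* held 2, at -179 and -169. The full palindrome TGACGTCA, which contains TGACG on both strands, was present in *Dusp1*, at -143, and in 1.55% of all promoters. TATAAA was present in *Fos* (12.4% of all promoters). The AP-1 element TGACTCA and the CArG box of serum response factor (CCWWWWWWGG, W being A or T) had no exact match in the 7 windows, against 4.46% and 1.47% of all promoters. Sites beyond the 250 bases, or with a letter changed, were not searched, so that these genes cannot be said to lack them. A match in these windows is a description of the letters and not a measured binding site.

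At 9 weeks in the medulla, none of the 10 genes differed between SCA7 and WT mice at an adjusted p of 0.05 (edgeR quasi-likelihood test over 19157 genes, Benjamini-Hochberg adjustment, n = 5 per genotype), against 6.97% of all genes. At an unadjusted p under 0.05 there were 3 of 10 (*Fos*, *Arc* and *Dusp1*), against 19.9% of all genes. DESeq2 called 0 of the 10, giving no adjusted p for 8 of them. The members' median log2 fold change was 0, against 0.08 over all genes.

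*Arc* came nearest to the threshold. In the WT medulla its level was 0, 35.2, 40.7, 24.6 and 25.7 CPM in mice 1 to 5, and in the SCA7 medulla it was 16.7, 0, 0, 18.1 and 18.7 CPM. The deep values were 35.2 and 25.7 in WT and 18.1 and 18.7 in SCA7, from 650 to 1344 counts, and did not overlap, while the remaining 6 libraries held 0 to 5 counts each and overlapped. The log2 fold change, SCA7 over WT, was -0.72 (SE 0.22, edgeR adjusted p = 0.0709). In the 4 deep libraries alone it was -0.75 (edgeR adjusted p = 0.0171). With depth as a block, an alternative added after the data were seen, it was -0.72 (edgeR adjusted p = 0.00987). These 2 settings called 2981 and 2414 of all genes, against 1335 in the main test. Without WT 1 the adjusted p by edgeR was 0.0411 and without SCA7 2 it was 0.0413, both libraries having 0 counts of *Arc*.

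*Jun* in the WT medulla was 42, 45.4, 8.15, 41 and 46 CPM in mice 1 to 5, and in the SCA7 medulla 8.36, 26.8, 7.26, 30.6 and 27.8 CPM. Every SCA7 value lay below 4 of the 5 WT values, and the WT value of 8.15 CPM rested on 1 count. The 3 shallow SCA7 libraries held 6 counts of *Jun* together and the 3 shallow WT libraries 11. The log2 fold change was -0.67 (SE 0.35, edgeR adjusted p = 0.321). Leaving out 1 library moved that p to 0.0269 (without SCA7 1), 0.019 (SCA7 2), 0.025 (SCA7 3), 0.0103 (WT 3) or 0.0277 (WT 4), each a shallow library, and in the deep libraries alone the change was -0.67 (edgeR adjusted p = 0.0041).

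*Dusp1* and *Fos* lay higher in the deep SCA7 medulla libraries. *Dusp1* was 8.4, 20.3, 16.3, 8.2 and 18.2 CPM in WT and 16.7, 20.1, 21.8, 25.6 and 22 CPM in SCA7, with a log2 fold change of 0.36 (SE 0.13, edgeR adjusted p = 0.115). *Fos* was 16.8, 11.8, 8.15, 8.2 and 9.57 CPM in WT and 16.7, 0, 14.5, 14 and 14.3 CPM in SCA7, with a log2 fold change of 0.41 (SE 0.19, edgeR adjusted p = 0.234). Without WT 5 the change of *Fos* was 0.19, and without WT 2 that of *Dusp1* was 0.58. The groups overlapped for both genes over all 10 libraries. *Egr1*, which stood highest in SCA7 mice 1 and 2 (58.5 and 53.6 CPM, on 7 and 8 counts), had a log2 fold change of 0.37 and an adjusted p of 0.664 by edgeR, and the change was -0.09 without SCA7 2. The other 5 genes had log2 fold changes between -0.15 (*Npas4*) and 0.07 (*Ier2*).

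Among the 9 members with at least 100 counts on average in the 4 deep medulla libraries, both SCA7 values lay above both WT values for 2 (*Fos* and *Dusp1*) and below them for 3 (*Jun*, *Arc* and *Npas4*). Over all 13228 such genes the shares were 33.5% above and 32.6% below, against 2 of 9 and 3 of 9 for the members.

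At 9 weeks in the cervical spinal cord, edgeR again called 0 of the 10, against 5.06% of 19263 genes. At an unadjusted p under 0.05 there were 3 (*Jun*, *Arc* and *Ier2*), against 17% of all genes, and DESeq2 called 0, with 1 at an unadjusted p under 0.05. The members' median log2 fold change was -0.25, against -0.02 over all genes.

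*Arc* had the lowest fitted change. In the WT cord it was 23.2, 29.8, 8.33, 17.2 and 24.4 CPM in mice 1 to 5, and in the SCA7 cord 0, 7.17, 6.25, 11.7 and 10.9 CPM. Every SCA7 value except those of mice 4 and 5 lay below every WT value. These 2 lay below 4 of the 5 WT values, the exception resting on 1 count. The SCA7 values below every WT value were those of the 3 shallow libraries, which held 2 counts of *Arc* together. The 3 shallow WT libraries held 6. The log2 fold change was -1.2 (SE 0.41, edgeR adjusted p = 0.119), and -1.15 (edgeR adjusted p = 0.0304) with depth as a block. In the 4 deep cord libraries alone none of the 10 genes passed.

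*Jun* in the WT cord was 59.5, 39.8, 58.3, 25.8 and 65.3 CPM, and in the SCA7 cord 23, 43, 50, 33.5 and 29.1 CPM. The deep libraries did not overlap (59.5 and 65.3 against 33.5 and 29.1), and the shallow ones did. The log2 fold change was -0.65 (SE 0.3, edgeR adjusted p = 0.269). *Ier2* was 10.2, 9.94, 8.33, 8.59 and 4.93 CPM in WT and 0, 7.17, 0, 4.7 and 3.15 CPM in SCA7, with a log2 fold change of -1.06 (SE 0.47, edgeR adjusted p = 0.253). It passed without WT 5 (-1.33, edgeR adjusted p = 0.00233), the deep WT library with the lower value, and without WT 1, the other deep WT library, the change was -0.41. The remaining 7 genes had log2 fold changes between -0.3 (*Egr1*) and 0.21 (*Fos*), the plot of fold changes showing how wide their errors were.

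In the 4 deep cord libraries both SCA7 values lay below both WT values for 3 of 9 members (*Jun*, *Arc* and *Ier2*), against 27.8% of 13208 genes, and above them for 0 of 9, against 26.6%. *Jun* and *Arc* were the members below WT in the deep libraries of both tissues. The tissues came from the same mice in SCA7 4, SCA7 5 and WT 5, and are not independent there.

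**Figure D2:**
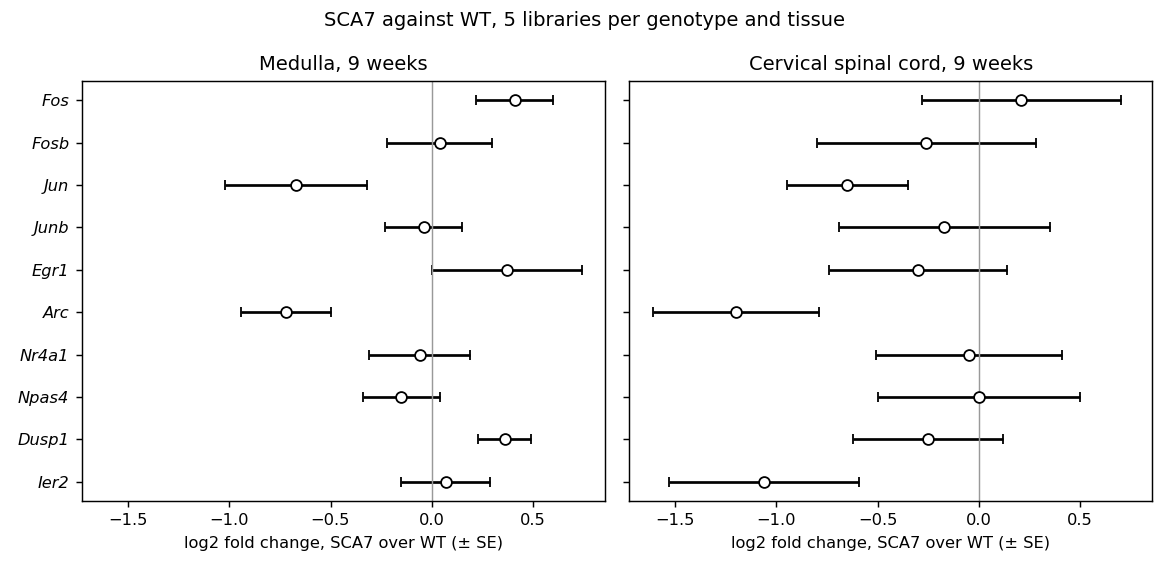
Log2 fold change, SCA7 over WT, of each gene at 9 weeks in the medulla and the cervical spinal cord, from edgeR on 5 libraries per genotype (bars, ± SE). *Arc* and *Jun* lie below 0 by more than their SE in both tissues, and none of the 10 passed the adjusted threshold of 0.05 in either.

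Markers of other cells moved with genotype in the same libraries. In the medulla 3 of 5 astrocyte markers were lower in SCA7, their summed level being 1150 to 1550 CPM in WT and 523 to 777 CPM in SCA7. Lower there were also 3 of 7 microglial markers (185 to 244 against 101 to 158 CPM), 3 of 5 red blood cell markers (32.8 to 84.3 against 0 to 87.1 CPM), 3 of 5 cerebellar markers (32.6 to 230 against 26.8 to 71.6 CPM) and 1 of 5 oligodendrocyte markers (16300 to 42400 against 8580 to 36200 CPM), and 1 of 5 motor neuron markers was higher (54.3 to 163 against 75.2 to 136 CPM). In the cord 3 of 5 astrocyte markers were lower (2200 to 4310 against 706 to 1000 CPM), as were 4 of 5 oligodendrocyte markers, 5 of 5 meningeal fibroblast markers, 5 of 5 red blood cell markers, 1 of 7 microglial and 1 of 5 choroid plexus markers. Endothelial markers (0 of 6) passed in neither tissue, meningeal fibroblast and choroid plexus markers (0 of 5 each) not in the medulla, and motor neuron (0 of 5) and cerebellar markers (0 of 4 tested) not in the cord. None of 10 neuronal markers passed in either tissue, with summed levels of 6280 to 7480 (WT) and 5370 to 6370 CPM (SCA7) in the medulla and 4350 to 10200 and 5840 to 7540 CPM in the cord. None of these lists had a marker at 0 in every 9-week library. Their part in the values of *Arc*, *Jun* and *Ier2* was not tested.

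The other genes of the pathway were mostly not called either, their counts to be read against 6.97% of all genes called in the medulla and 5.06% in the cord. Among 17 other immediate early transcription factors tested in the medulla, 2 rose in SCA7 and none fell: *Maff*, a small Maf factor induced by stress (log2 fold change 3.21, SE 0.32, edgeR adjusted p = 7.42e-05), and *Egr2*, a zinc-finger factor that Schwann cells also need for myelination (1.59, SE 0.27, edgeR adjusted p = 0.00859). *Maff*, and *Cdkn1a* given below, are among the genes the study selected from these libraries, and their values are not independent of that choice. In the cord *Maff* rose (2.25, SE 0.55, edgeR adjusted p = 0.0257) and *Egr2* fell (-2.75, SE 0.38, edgeR adjusted p = 0.000797). Of 21 upstream kinases and transcription factors, which include those that act on the members' promoters, 0 passed in either tissue. Of 13 feedback inhibitors, 1 fell in the medulla (*Zfp36l1*, an RNA-decay factor, -0.7, SE 0.16, edgeR adjusted p = 0.0194) and 0 passed in the cord. Of 13 activity-regulated effectors, 0 passed in either tissue. Of 10 stress response genes, 1 rose in the medulla (*Cdkn1a*, the cell-cycle inhibitor p21, 3.03, SE 0.47, edgeR adjusted p = 0.00163) and 0 passed in the cord.

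At 5 weeks and P8 the 10 genes gave no call. In the 5-week medulla edgeR called 0 of 10 (0.846% of 18432 genes), with 1 at an unadjusted p under 0.05 (*Arc*), against 10.8% of all genes, and DESeq2 called 0. *Arc* was 27.2 and 26.5 CPM in the deep WT libraries, and 0 and 8.47 CPM in the shallow SCA7 libraries, on 0 and 1 counts (edgeR adjusted p = 0.358). *Jun* was 46 and 53.6 CPM in WT and 26.4 and 16.9 CPM in SCA7, on 3 and 2 counts (edgeR adjusted p = 0.491). The SCA7 values of both genes rest on 0 to 3 counts a library.

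In the 5-week cord edgeR called 0 of 10 (0.728% of 17162 genes), with 0 at an unadjusted p under 0.05 and 0 called by DESeq2. *Jun*, the member with most counts there, was 75.6 and 54.6 CPM in WT and 60.4 and 94.3 CPM in SCA7, and the groups overlapped. Among the P8 libraries labelled medulla, edgeR called 0 of 10 and 0% of 20564 genes, with 0 of 10 members and 559 genes at an unadjusted p under 0.05, and DESeq2 called 0. *Fos* was 5.38 and 18.5 CPM in the WT libraries, both deep, and 20.1 CPM in the deep SCA7 library. In the shallow SCA7 library it was 0 CPM, on 0 counts, which there allows a level of up to 29 CPM. The spread within SCA7 therefore cannot be judged. The deep SCA7 value lay nearer to the higher WT value than the WT values lay to each other. The P8 libraries labelled cervical spinal cord held 1 WT library and gave no test between genotypes.

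Between tissues at 9 weeks, with each mouse as a block, 2 of 10 genes were lower in the cervical spinal cord than in the medulla, against 10% of 19838 genes called. *Egr1* changed by -0.42 (log2, cord over medulla, SE 0.13, edgeR adjusted p = 0.0377) and *Arc* by -0.4 (SE 0.12, edgeR adjusted p = 0.0354). At an unadjusted p under 0.05 there were 6 of 10, also *Fos*, *Fosb* and *Dusp1*, lower in the cord, and *Jun*, higher, against 20.7% of all genes. DESeq2 called 0, and both calls were also lost without the mouse block. *Egr1* was no longer called without SCA7 1, SCA7 4, SCA7 5 or WT 5, and *Arc* without SCA7 4, SCA7 5, WT 4 or WT 5. The change of *Egr1* was -0.25 without SCA7 4 and -0.04 without WT 5, while that of *Arc* stayed between -0.43 and -0.33 whichever mouse was left out. The members' median was -0.23, against 0.01 over all genes.

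Of the mice older than P8, 4 had deep libraries of both tissues, WT 5, SCA7 4 and SCA7 5 at 9 weeks and WT 2 at 5 weeks. Their log2 ratios were scaled within each pair of libraries, and so can differ slightly from the ratio of the CPM values, which were scaled over all 35. *Fosb* was 2.55, 2.31, 2.36 and 2.56 CPM in their medulla and 1.27, 1.41, 1.25 and 1.76 CPM in their cord. It was lower in the cord in 4 of 4 mice, by log2 ratios of -1.02 to -0.56. *Fos* was 9.57, 14, 14.3 and 16.1 CPM in the medulla and 8.98, 8.23, 9.86 and 8.95 CPM in the cord, again lower in 4 of 4 (-0.87 to -0.11). The cord values of *Fos* stayed within a narrow band while the medulla values did not. *Arc* (-0.8 to -0.09), *Junb* (-0.15 to -0.04) and *Dusp1* (-0.56 to -0.05) were also lower in the cord in 4 of 4 mice. *Jun* was higher in the cord in 4 of 4, by 0.01 to 0.49. *Egr1*, called over the 10 mice, was lower in 3 of these 4, the 5-week mouse being the other way (23 CPM in the medulla and 28.6 in the cord). *Ier2* and *Nr4a1* were lower in 3 of 4 and *Npas4* in 2 of 4. In the 1 WT mouse at P8 with both libraries deep, whose labels are in doubt, 7 of the 10 genes had a ratio below 0, *Dusp1* the lowest (17.2 CPM labelled medulla and 7.97 CPM labelled cord), and *Arc* (0.02) and *Nr4a1* (0.05) lay near 0.

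**Figure D3:**
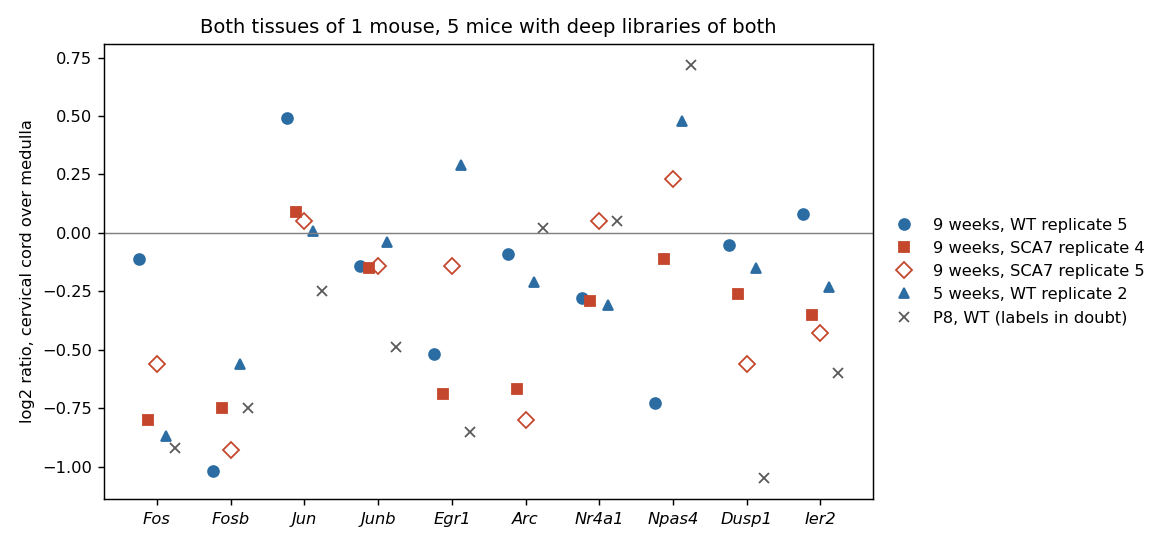
Log2 ratio of the level labelled cervical spinal cord over that labelled medulla of the same mouse, for each gene in the 5 mice with deep libraries of both, each point 1 mouse. *Fos*, *Fosb*, *Junb* and *Dusp1* lie below 0 in the 4 older mice, and *Jun* lies above 0 in them. The P8 mouse lies below 0 for each of these genes, but its tissue labels are in doubt and it cannot be counted with the older mice.

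The change between SCA7 and WT did not differ between tissues by a call for any of the 10 (edgeR interaction, 0 of 10, against 2.78% of genes; DESeq2 0). At an unadjusted p under 0.05 there were 2, *Arc* (-0.64, SE 0.24, edgeR adjusted p = 0.229) and *Npas4* (0.69, SE 0.33, edgeR adjusted p = 0.431), against 11.1% of all genes. Without WT 5 the value for *Npas4* was -0.46. Markers differed between tissues in the same fit: 6 of 6 *Hox* genes were higher in the cord, and of 10 neuronal markers 2 were higher and 2 lower. All 5 cerebellar markers were lower in the cord, their summed level being 26.8 to 230 CPM in the medulla and 0 to 40.6 CPM in the cord, and their part in the values of *Egr1* and *Arc* was not tested.

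Whether both tissues of a mouse stood off together was tested with a term for the mouse at 9 weeks. It was called for 0 of 10 genes, against 8.54% of all genes; DESeq2 called 0, and 1 gene, *Ier2*, had an unadjusted p under 0.05 (edgeR F = 2.55, adjusted p = 0.198), against 22.7% of all genes. *Egr1*, *Npas4*, *Nr4a1* and *Dusp1* had F values of 2.01 to 2.15 and adjusted p values by edgeR of 0.28 to 0.316. Only SCA7 4, SCA7 5 and WT 5 had deep libraries of both tissues. In the other mice 0 or 1 of the 10 genes exceeded 3 counts in both tissues. The lack of a call therefore says little about whether the tissues of a mouse moved together.

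The summed level of the 10 genes in the medulla at 9 weeks was 109, 191, 122, 131 and 164 CPM in WT mice 1 to 5 and 134, 141, 94.4, 162 and 141 CPM in SCA7 mice. In the cord of the same mice it was 195, 129, 167, 172 and 166 CPM in WT and 99.6, 115, 150, 132 and 120 CPM in SCA7. WT mouse 2 had the highest WT sum in the medulla and the lowest in the cord, and WT mouse 1 the reverse. In each of these mice 1 of the libraries was shallow, with a Poisson interval of 58.1 to 187 CPM for WT medulla 1 and 68.8 to 221 CPM for WT cord 2. In the cord the deep SCA7 sums (132 and 120) lay below the deep WT sums (195 and 166), *Jun* making up the largest share of each.

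**Figure D4:**
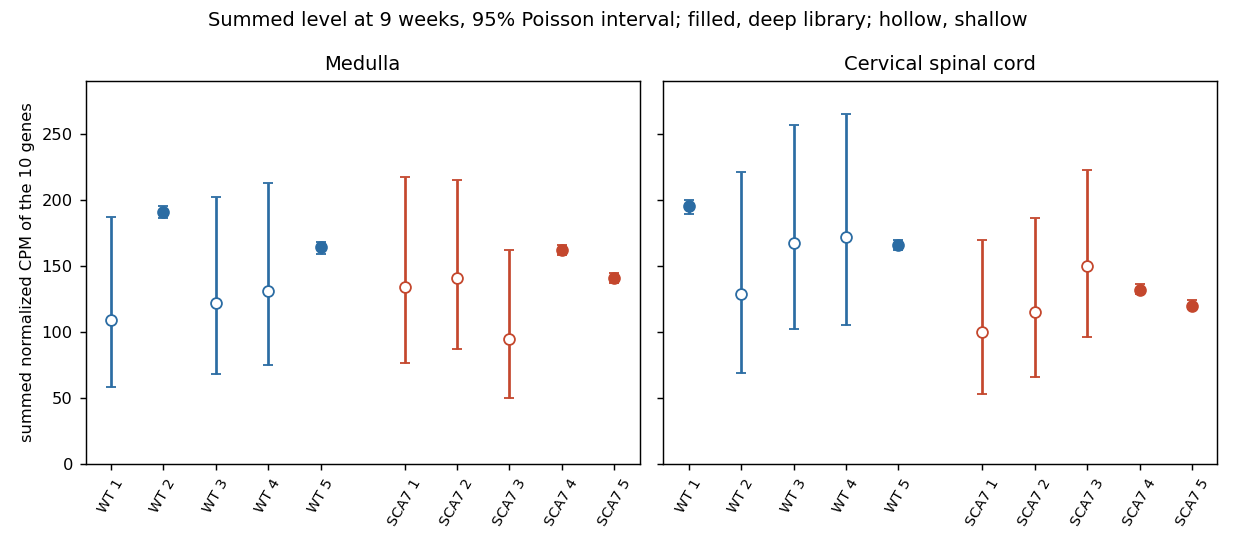
Summed normalized CPM of the 10 genes in each library at 9 weeks by tissue, WT in blue and SCA7 in red, filled for deep and hollow for shallow libraries, with exact 95% Poisson intervals from the counts. The intervals of the shallow libraries are wider than those of the deep ones, and the 2 deep SCA7 cord libraries lie below the 2 deep WT cord libraries.

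Among the genes that stood off their group's median in both tissues of a mouse with deep libraries, 3 of 4 stood on the same side in SCA7 4, 2 of 4 in SCA7 5, 2 of 3 in WT 5 and 5 of 10 in the 5-week WT 2. The medians themselves rest partly on shallow libraries, which made up 3 of the 5 libraries in each 9-week group. In the 5-week cord the median lay midway between WT 2 and the shallow library of WT 1. That library held 18 counts of the 10 genes together and alone set the side on which WT 2 stood. These counts are a description, carry no test and do not show whether the tissues of a mouse agreed.

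The genes did move together between some mice of 1 group. The 2 WT medulla libraries at 5 weeks were both deep, and 8 of the 10 genes were higher in mouse 1. *Egr1* was 69.7 and 23 CPM in mice 1 and 2, from 2907 and 882 counts, a log2 ratio of 1.62 (counting SE 0.06). *Fosb* was 7.17 and 2.56 CPM, a ratio of 1.51 (counting SE 0.17), and *Npas4* was 12.6 and 5.75 CPM, a ratio of 1.16 (counting SE 0.12). These 3 with *Nr4a1* (17.8 and 10.7 CPM, 0.76) lay outside the middle 95% of all 13280 genes, which ran from -0.75 to 0.74. *Junb* (0.62) and *Fos* (0.45) were higher in mouse 1 and within that range, *Arc* (0.06), *Dusp1* (0.06) and *Ier2* (-0.09) lay near 0, and *Jun* (-0.2) was lower. The median absolute log2 ratio was 0.533 for the members and 0.164 for all genes. Other markers differed between the same libraries, choroid plexus markers summing to 8.76 CPM in mouse 1 and 798 CPM in mouse 2 and cerebellar markers to 35.2 and 182 CPM, and their part in the difference was not tested. In the cord of mouse 1, a shallow library, *Egr1* had 0 counts and *Npas4* 1.

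The 2 deep WT libraries labelled medulla at P8 differed the other way round. In library 1 *Fosb* was 0.279 CPM and in library 2 it was 1.03 CPM, a log2 ratio of -1.91 (counting SE 0.34). *Fos* was 5.38 and 18.5 CPM (-1.8), *Egr1* 8 and 24.6 CPM (-1.64) and *Dusp1* 6.06 and 17.2 CPM (-1.53). In all, 9 of the 10 genes were lower in library 1, and *Arc* was higher (19.4 and 13.8 CPM, 0.47). These 4 and *Arc* lay outside the middle 95% of all 14611 genes, -1.41 to 0.39, a range that was itself shifted towards library 1 being lower. The range is that of genes with at least 100 counts on average, and *Fosb*, with 32 and 44 counts, had fewer. The median absolute log2 ratio was 0.688 for the members and 0.13 for all genes. Meningeal fibroblast markers summed to 223 CPM in library 1 and 1830 CPM in library 2, and red blood cell markers to 349 and 735 CPM, and their part in the difference was not tested. Both libraries came from mice of 1 genotype and label, and for *Fos*, *Fosb*, *Egr1* and *Dusp1* the difference between them was larger than the fitted difference between genotypes at P8 (log2 fold changes of -0.17 to 0.77).

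At 9 weeks pairs of deep libraries were closer. The members' median absolute log2 ratio was 0.27 in the SCA7 medulla (all genes 0.0839), 0.214 in the SCA7 cord (0.114), 0.205 in the WT medulla (0.135) and 0.342 in the WT cord (0.418). The members outside the middle 95% of all genes numbered 2, 3, 1 and 0 of 10 in these pairs. In the SCA7 cord they were *Ier2* (0.58), *Dusp1* (0.54) and *Junb* (0.47), all higher in mouse 4. In the WT cord pair, 12.3% of all genes differed by more than 2-fold, WT 1 having the highest *COX1* share of the deep libraries.

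**Figure D5:**
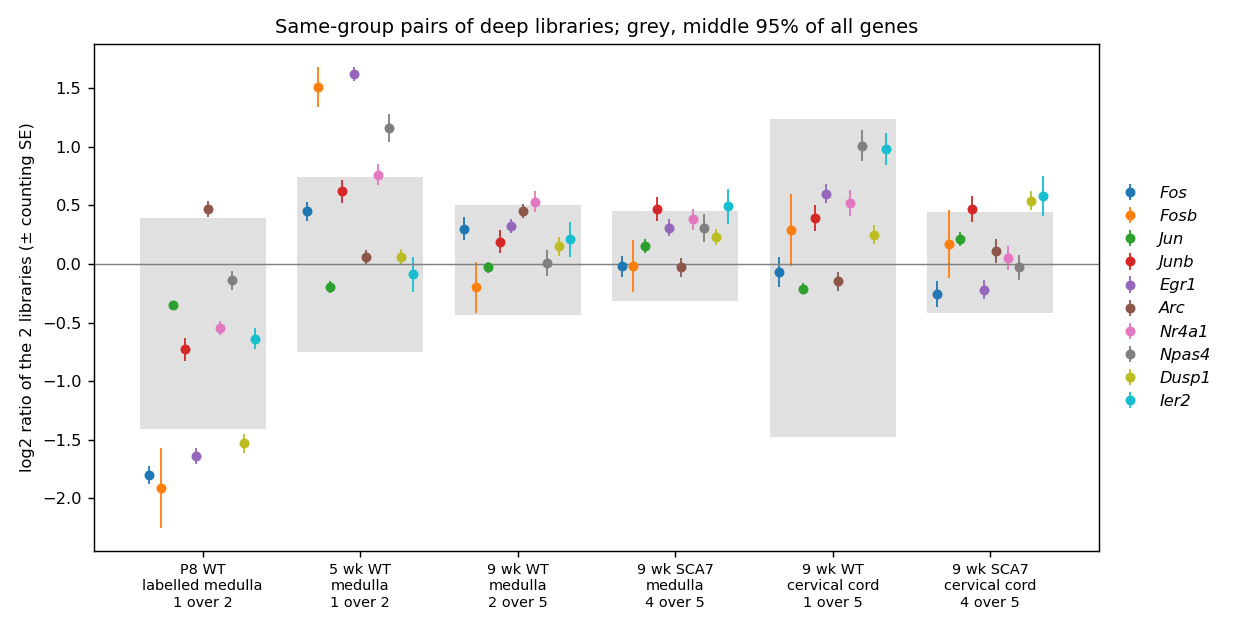
Log2 ratio between the 2 deep libraries of each group that has 2, for each of the 10 genes (points, bars ± counting SE), over the middle 95% of all genes with at least 100 counts on average (grey). *Fosb* falls short of that count in the P8 pair and in the 9-week pairs. Points lie outside the grey range for 5 genes at P8, 4 at 5 weeks and 0 to 3 in the pairs at 9 weeks, with *Fosb* and *Egr1* far out in both younger pairs and in opposite directions.

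Across the 15 deep libraries the members varied in how closely they went together. Of the 45 pairs of members 28 had a positive Pearson correlation of log2 CPM, with a median of 0.19 and a range of -0.54 to 0.91. These are descriptions over libraries that share mice, tissues and ages, and carry no test. The pairs nearest to each other were *Junb* and *Dusp1* (r = 0.91), *Fosb* and *Egr1* (0.86), *Fosb* and *Junb* (0.83) and *Nr4a1* and *Npas4* (0.79). *Egr1* followed the mean of the other 9 most closely (r = 0.878), ahead of *Junb* (0.665), *Fosb* (0.622) and *Fos* (0.603). Over these 15 libraries *Npas4* (0.016) and *Jun* (-0.186) did not follow it. Within the 8 deep libraries of 9 weeks *Egr1* stood at 0.83, *Jun* at 0.199, *Npas4* at 0.442 and *Fos* at 0.179. *Ier2* stood at 0.688 there, against 0.126 over all 15. The pair of *Jun* and *Dusp1* had the lowest correlation of all (-0.54).

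Outside the list, the genes whose log2 CPM was most like the members' mean over the same 15 libraries, of 15278 candidates, were *Tnnt1* (r = 0.829), *Cfap46* (0.827), *Tmem38a* (0.767), *Amotl1* (0.763) and *Dnah1* (0.755).

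With age, *Jun* fell and *Fosb* rose in the libraries labelled medulla. Between P8 and 9 weeks, with genotype in the fit, 4 of 10 genes were called, against 31.2% of 21133 genes, 2 in each direction. DESeq2 called 3 of the 10, and 6794 of all genes. In the deep libraries labelled medulla *Jun* was 66.6, 83.7 and 82.3 CPM at P8 and 45.4, 46, 30.6 and 27.8 CPM at 9 weeks. Every P8 value lay above every 9-week value, also with the shallow libraries (48.3 CPM at P8 on 5 counts), and the log2 change was -1.25 (SE 0.21, edgeR adjusted p = 0.000103). Against the 5-week and 9-week libraries labelled cord, whose position genes are nearer to those of the P8 libraries, it was -0.78 (edgeR adjusted p = 0.0177).

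*Fosb* was 0.279, 1.03 and 0.724 CPM at P8 and 2.23, 2.55, 2.31 and 2.36 CPM at 9 weeks in the same libraries. The deep libraries of the ages did not overlap, and the log2 change was 1.64 (SE 0.46, edgeR adjusted p = 0.00926). Against the older libraries labelled cord it was 1.2 (edgeR adjusted p = 0.0821), and without WT library 1 at P8 the adjusted p was 0.0533. *Dusp1* rose by 0.74 (SE 0.26, edgeR adjusted p = 0.0366) and *Ier2* fell by 0.7 on the log2 scale (SE 0.26, edgeR adjusted p = 0.0465). The change of *Dusp1* was 0.49 without WT library 1 and 1.23 without WT library 2 at P8. The calls of *Dusp1* and *Ier2* depended on the setting, passing in 14 and 11 of 25 alternatives, where *Jun* passed in 25 and *Fosb* in 23. Against the older libraries labelled cord neither passed (0.65, adjusted p = 0.135, and -0.5, adjusted p = 0.338, both edgeR).

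In the libraries labelled cervical spinal cord 0 of 10 genes were called between P8 and 9 weeks by edgeR (20.5% of 19880 genes), with 1 at an unadjusted p under 0.05, *Jun*, against 32.1% of all genes, and DESeq2 called 0. *Jun* changed by -0.81 (SE 0.29, edgeR adjusted p = 0.0546). Against the older libraries labelled medulla it changed by -1.21 (edgeR adjusted p = 0.00348) and *Dusp1* by 0.89 (edgeR adjusted p = 0.0321). *Jun* was thus lower at 9 weeks than at P8 whichever tissue the P8 libraries were set against, with an adjusted p above 0.05 in the comparison within the cord label.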

How the data were processed

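Whole medulla and cervical spinal cord RNA was sequenced in 35 libraries. The authors mapped the reads to mm10, kept those with a single location and deposited raw counts per gene symbol, 1 table a library; the aligner, the counter and the use of strand are not given in the sources used here. Because single-location reads were kept, genes with near-identical copies lose counts. Totals were 28969003 to 99353286 counts in 15 libraries and 95917 to 396417 in 20.

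Genes reaching 10 counts in any library were tested with edgeR 4.0.16 (R 4.3.3, limma 3.58.1, TMM, quasi-likelihood test with the settings of earlier releases, two-sided, Benjamini-Hochberg adjustment over all genes tested, threshold 0.05). DESeq2 1.42.0, the study's tool, was an alternative, with other scaling, filters, blocks, depth classes and libraries left out. Replicates are separate mice per the labels. Normalized CPM is the count over the total times its TMM factor. The SE given with an edgeR log2 fold change is its absolute value over the square root of the F statistic. The 10 genes were named by symbol, other genes by list and call or by likeness to the members' mean. Members and lists were chosen with earlier results of these data known. The tests were tried on simulated data. Of 21 pairs of libraries of 1 group and depth, none was a duplicate (lowest chi-square per degree of freedom 1.06). Promoters and positions are from RefSeq GRCm38.p6 and exon lengths from the supplied annotation. jsonlite 2.0.0 read the labels. A list of marker genes of the medulla is not reported here.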

Additional observations from a re-analysis of the deposited data

Results flagged for a closer look

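In 5 of the 40 groups of 5 libraries tested (10 genes, both tissues and genotypes at 9 weeks), 1 library stood far from the other 4. The limit used is passed in about 1 in 20 groups when the values are normal and equally precise. Each group here mixes deep and shallow libraries, so that the 5 of 40 cannot be set against that share. The 5 values lie in 4 libraries, all shallow, and rest on 0 to 4 counts. *Jun* was 8.15 CPM in WT medulla 3, on 1 count, the nearest library being at 41 CPM. *Npas4* was 16.4 CPM in WT medulla 4, on 2 counts (nearest 9.65). *Fos* was 0 CPM in SCA7 medulla 2 (nearest 14). In SCA7 cord 1, *Fosb* was 7.66 CPM on 1 count (nearest 1.41) and *Npas4* was 30.6 CPM on 4 counts (nearest 9.11).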

How the results depend on the processing

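Depth limits what can be read from these genes: 20 of 35 libraries are shallow, and in 19 of them at least 8 of the 10 genes have 3 counts or fewer. For SCA7 against WT in the medulla at 9 weeks, 0 of 10 genes called became 2 in the deep libraries alone. There 2981 of 19094 genes were called, against 1335 of 19157 in the main test. With depth as a block (added after the data were seen) the count was 2, where 2414 of all genes were called. With 1 library left out the count was 0 to 2 (1 without WT 1, WT 3, WT 4, SCA7 1 or SCA7 3, 2 without SCA7 2). Without these libraries 1234 to 1445 of all genes were called. In the cord 0 became 1 with depth as a block, where 893 of 19263 genes were called, against 974 in the main test. With 1 library left out the count was 0 to 1 (1 without WT 5, where 2872 of 18959 genes were called). Between tissues 2 became 0 with DESeq2 (318 of all genes called), with no filter (1364) and with the bias-adjusted test (366, added after the data were seen). The count was also 0 with no mouse block (876) and in the deep libraries with no mouse block (521). The main test called 1984 of all genes. With 1 mouse left out the count was 0 to 3. It was 0 without SCA7 4, SCA7 5 or WT 5 (717, 855 and 190 of all genes) and 1 without SCA7 1 (1890). Between P8 and 9 weeks in the medulla 4 became 2 with library totals (4712 of all genes called) and 2 with the bias-adjusted test (3624). The main test called 6583 of all genes. Against the older libraries of the other tissue (added after the data were seen) the count was 1 (5242). With 1 library left out the count was 2 to 5. It was 2 without WT 2, WT 5, SCA7 4 or SCA7 5 at 9 weeks, or WT 1 or SCA7 1 at P8 (4944 to 5961 of all genes). In the cord 0 became 2 against the other tissue (4003 of 19899 genes called) and 4 with both tissues together (7688 of 21378, added after the data were seen). The main test called 4084 of 19880. The fit of both tissues together had no term for tissue or mouse. It took both libraries of a mouse as separate and was the same fit for either tissue label. With 1 library left out the count was 0 to 1 (1 without WT 1 or WT 5 at 9 weeks, where 4348 and 4324 of all genes were called). The causes were not tested. Of 1681 values of single genes under the alternatives, 1603 kept their side of the threshold, 33 passed it and 45 no longer did; 116 turned sign, 0 of them called in either setting.

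The replicate numbers name different mice. Same-numbered WT and SCA7 libraries had correlations between -0.8 and 0.94 for the medulla and between -0.7 and 0.9 for the cord. With the replicate block 0 of the 10 genes were called in either tissue at 9 weeks, where 361 (medulla) and 1117 (cord) of all genes were called against 1335 and 974 without it, and 0 at 5 weeks and P8.

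A filter of at least 10 counts in every library left no member to test in any comparison, and neither did the shallow libraries alone at 9 weeks, so that these alternatives gave no count.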
